A study of Brachypodium distachyon with 12 samples.

Results

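The genes described here are BdiBd21-3.3G0311800, BdiBd21-3.3G0558300 and BdiBd21-3.1G0917300 of the grass Brachypodium distachyon. Each was taken by its identifier from the gene table, where its best-matching known protein is a geraniol 8-hydroxylase, a cytochrome P450 of family CYP76. They are 3 of the 12 CYP76 genes among the 39068 genes of the table. Another gene whose best match has the same name, BdiBd21-3.3G0472900, was not chosen and is described with the rest of the family. The 3 genes were chosen with their values in these libraries known, so their levels and differences are given as a description, without tests.

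The study, titled after dopamine biosynthesis in plants, sequenced poly-T-selected RNA from wild-type plants of the inbred line Bd21-3. Plants grew in hydroponic vessels on 0.5× Murashige and Skoog liquid medium at 22 °C with 16 h of light, 8 h of dark and 50% humidity. Roots and shoots were taken at week 2 and at week 4, with 3 libraries in each of the 4 groups. The labels call these biological replicates from different plants. No mutant or treatment was included, so organ and age are the only contrasts. Each week is a separate harvest, and plant age and harvest cannot be told apart.

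Cytochrome P450s are haem enzymes, usually anchored in the endoplasmic reticulum, that insert 1 atom of molecular oxygen into a substrate. Their electrons come from NADPH-cytochrome P450 reductase, and for some reactions from cytochrome b5. Geraniol 8-hydroxylase of Catharanthus roseus, CYP76B6, oxidises the monoterpene alcohol geraniol on the route to iridoids and terpenoid indole alkaloids, and CYP76B10 of Swertia mussotii has the same name. CYP76 enzymes also act elsewhere: CYP76M enzymes of rice oxidise diterpenes, CYP76C enzymes of Arabidopsis act on monoterpenols, and CYP76AD enzymes of beet and its relatives hydroxylate tyrosine to L-DOPA, the precursor of betalains and of dopamine. A best-match name records sequence similarity only, and the substrates of the Brachypodium proteins were not measured.

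BdiBd21-3.3G0311800 lies on chromosome 3, positions 22098413 to 22102370 on the minus strand, and its closest match is CYP76B10. BdiBd21-3.3G0558300 lies on the same chromosome and strand, positions 43876603 to 43878819, with the same closest match. BdiBd21-3.1G0917300 lies on chromosome 1, positions 67297786 to 67299851 on the plus strand, with CYP76B6 as its closest match. The coordinates are those of the gene table, and no source used here names their genome build. Each gene carries a single P450 domain in the table's annotation, and no other annotated gene overlaps any of the 3. Reads that match several CYP76 genes equally well may have been counted for another copy or not at all, which was not tested.

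Library totals ranged from 17261299 to 24186744 counts, and the 3 genes together drew 675 to 1397 counts per library. Levels are CPM, counts divided by the library size in units of 1e6 counts after scaling by the trimmed mean of M-values (TMM), and errors are SD over 3 libraries. Between replicates of a group the chi-square statistic was 6.94 to 36.1 times its degrees of freedom, so all differed beyond counting noise. Organ labels matched the markers. Summed CPM of 27 chlorophyll a-b binding protein genes was 63230 to 86380 in shoots, against 1119 to 2299 in the younger and 6411 to 7332 in the older roots. None of these genes was at zero in shoots, 1 was in week 2 roots and 2 were in week 4 roots. Summed CPM of 14 Casparian strip and root cap genes was 715.5 to 891.9 in roots and 4.181 to 6.533 in shoots. At zero were 1 of them in week 4 roots and, among the shoots, 5 at week 2 and 7 at week 4. In whole organs, fewer cells of a type and less RNA per cell cannot be told apart.

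The 3 genes had 3 different patterns. BdiBd21-3.3G0311800 overlapped between the organs at week 2 and was higher in roots at week 4, with opposite directions with age in the organs. BdiBd21-3.3G0558300 was low in roots and reached its highest level in week 4 shoots. BdiBd21-3.1G0917300 was higher in roots than in shoots and higher at week 4 than at week 2 in both organs.

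**Figure D1:**
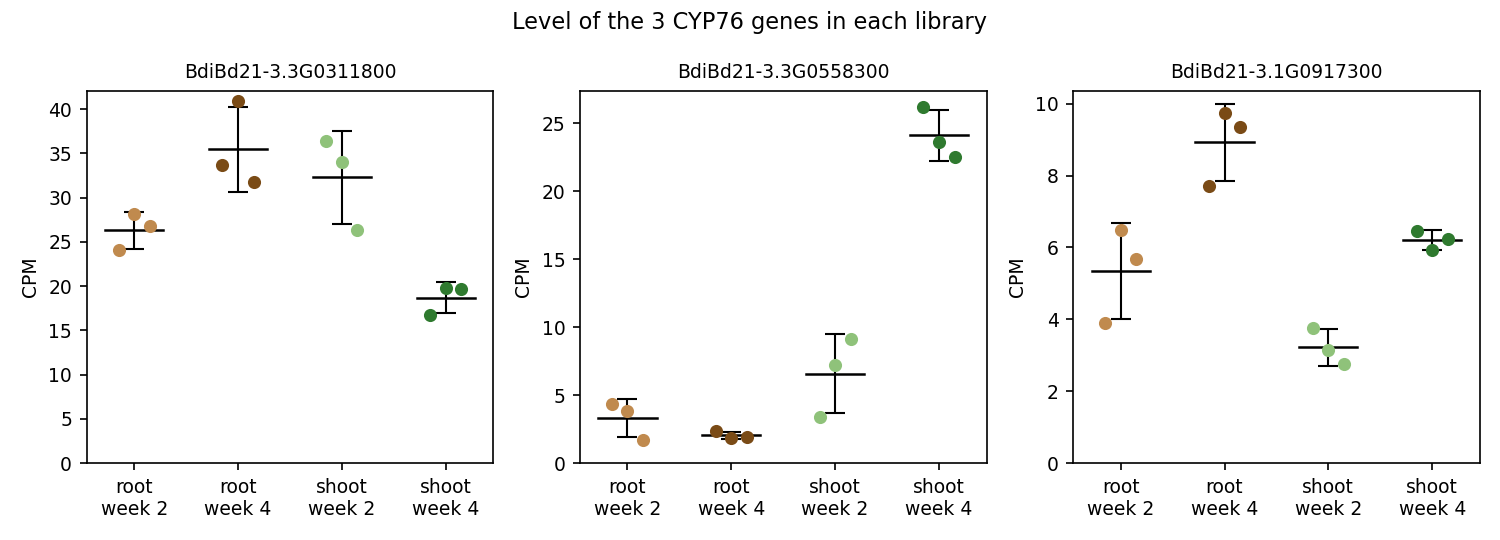
Level of the 3 genes in each library, as CPM on a TMM-scaled library size (each panel has its own axis from 0), for roots and shoots at week 2 and week 4. Points are libraries and bars are the mean with SD of 3 libraries. BdiBd21-3.3G0558300 sits at 22.6 to 26.2 CPM in week 4 shoots and at or below 9.11 CPM in the other 3 groups.

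BdiBd21-3.3G0311800 measured 24.0, 28.1 and 26.8 CPM in week 2 roots (replicates 1 to 3, in that order here and below), a mean of 26.3 ± 2.07. In week 4 roots it measured 33.7, 40.9 and 31.8 CPM, a mean of 35.5 ± 4.81. All 3 week 4 roots lay above all 3 week 2 roots. In shoots it measured 36.4, 34.1 and 26.3 CPM at week 2, a mean of 32.3 ± 5.30, and 16.7, 19.8 and 19.7 CPM at week 4, a mean of 18.7 ± 1.75. All 3 week 4 shoots lay below all 9 other libraries. In order of means on the TMM scale, week 4 roots came first, then week 2 shoots and week 2 roots. Each of these groups overlapped the next. The gap to week 4 shoots was the only one in that order without overlap.

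The week 4 minus week 2 difference of BdiBd21-3.3G0311800 was 0.43 ± 0.14 (log2, fitted standard error) in roots and -0.79 ± 0.14 in shoots. The ratio of mean CPM was 1.35 in roots, and in shoots the week 2 mean was 1.73 times the week 4 mean. Root and shoot libraries overlapped at week 2, with a root minus shoot difference of -0.29 ± 0.14. At week 4 roots were higher without overlap, by 0.92 ± 0.14, or 1.90 times in mean CPM. Week 4 above week 2 in roots together with week 4 below week 2 in shoots, both without overlap, was seen in 647 of the 26463 genes that passed the filter on low counts, or 2.44%.

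BdiBd21-3.3G0558300 measured 4.33, 3.87 and 1.72 CPM in week 2 roots, a mean of 3.31 ± 1.39. In week 4 roots it measured 2.36, 1.88 and 1.94 CPM, a mean of 2.06 ± 0.265. The root groups overlapped, and the single lowest root value came from week 2. In week 2 shoots it measured 3.42, 7.20 and 9.11 CPM, a mean of 6.58 ± 2.90, and in week 4 shoots 26.2, 23.6 and 22.6 CPM, a mean of 24.1 ± 1.87. Replicate 1 of the week 2 shoots lay within the range of week 2 roots, while every week 4 shoot lay above all 9 other libraries. Week 4 shoots thus stood apart, and the other 3 groups each overlapped the next in the order week 2 shoots, week 2 roots, week 4 roots.

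In shoots the week 4 mean of BdiBd21-3.3G0558300 was 3.67 times the week 2 mean, a log2 difference of 1.88 ± 0.35. In roots the log2 difference was -0.69 ± 0.37, with overlap. Shoot libraries at week 4 averaged 11.7 times the root libraries, a root minus shoot log2 difference of -3.55 ± 0.38. At week 2 the same difference was -0.98 ± 0.36, with overlap. Between 34 and 101 counts in each root library lie behind these values, against 415 to 564 in each week 4 shoot library.

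BdiBd21-3.1G0917300 measured 3.89, 6.48 and 5.68 CPM in week 2 roots, a mean of 5.35 ± 1.33, and 7.71, 9.73 and 9.35 CPM in week 4 roots, a mean of 8.93 ± 1.07. In shoots it measured 3.77, 3.16 and 2.75 CPM at week 2, a mean of 3.23 ± 0.514, and 6.46, 5.92 and 6.25 CPM at week 4, a mean of 6.21 ± 0.271. Week 4 was above week 2 in both organs and roots were above shoots at both ages, all without overlap. Week 4 shoots and week 2 roots, next to each other in the order of means, overlapped.

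The week 4 minus week 2 log2 difference of BdiBd21-3.1G0917300 was 0.74 ± 0.21 in roots and 0.94 ± 0.21 in shoots, or 1.67 and 1.92 times in mean CPM. The root minus shoot log2 difference was 0.73 ± 0.21 at week 2 and 0.52 ± 0.21 at week 4. The change with age in roots minus that in shoots was -0.20 ± 0.30 for this gene, against 1.22 ± 0.20 for BdiBd21-3.3G0311800 and -2.57 ± 0.51 for BdiBd21-3.3G0558300.

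Separated groups were common in these data. Roots and shoots did not overlap at week 2 for 65% of all tested genes (32.9% higher and 32% lower in roots), and for 1 of the 3 genes described, higher in roots. At week 4 the share was 67% of tested genes (35.1% higher and 31.8% lower in roots), with 3 of 3 here, 2 higher and 1 lower. Week 4 and week 2 did not overlap in roots for 42.4% of tested genes (23.8% higher and 18.6% lower at week 4), with 2 of 3 here, both higher. In shoots the share was 49% (23.3% higher and 25.6% lower at week 4), with 3 of 3 here, 2 higher and 1 lower. The genes were chosen with these contrasts known, and nothing is read from their counts. The summed chlorophyll a-b binding genes were also higher in week 4 than in week 2 roots, and their part in the root values was not tested.

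The genes differed in level as well as in pattern, which can be compared only per length. In mean CPM per kilobase of the table's gene length, BdiBd21-3.3G0311800 was at 12.1 in roots and 14.8 in shoots at week 2, and at 16.3 in roots and 8.58 in shoots at week 4. BdiBd21-3.3G0558300 was at 1.56, 3.09, 0.968 and 11.3 in the same order of groups, and BdiBd21-3.1G0917300 at 2.72, 1.64, 4.55 and 3.16. BdiBd21-3.3G0311800 led in 3 groups, and BdiBd21-3.3G0558300 in week 4 shoots.

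The change of lead was seen in all 3 week 4 shoots. The level per kilobase of BdiBd21-3.3G0558300 divided by that of BdiBd21-3.3G0311800 was 0.0658 to 0.184 in week 2 roots and 0.0471 to 0.0718 in week 4 roots. It was 0.0961, 0.217 and 0.355 in week 2 shoots and 1.61, 1.23 and 1.18 in week 4 shoots. The ratio was above 1 in all 3 week 4 shoots and in no other library. The level of BdiBd21-3.1G0917300 divided by that of BdiBd21-3.3G0311800 was 0.103 to 0.116 in week 2 shoots and 0.332 to 0.429 in week 4 shoots, against 0.179 to 0.326 in roots.

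**Figure D2:**
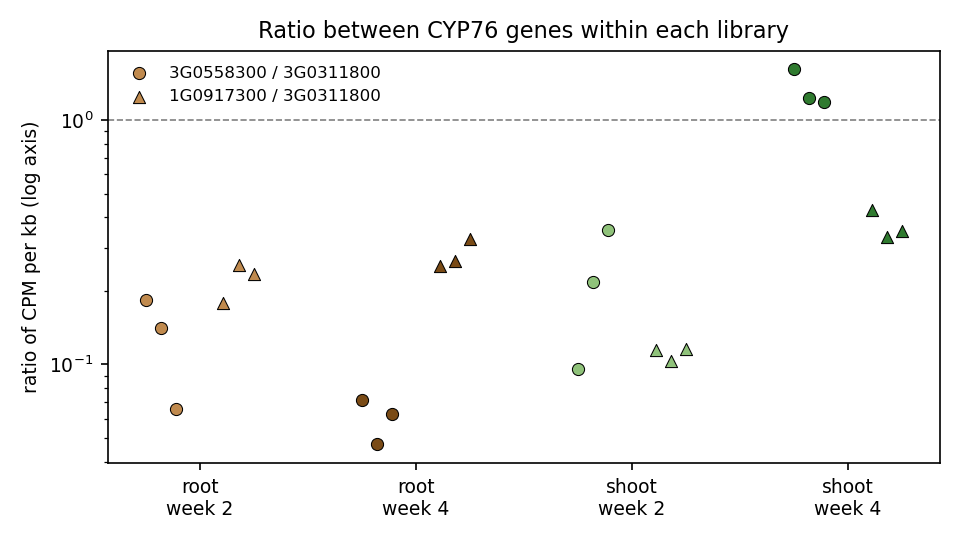
Ratios between the 3 genes in each library, each the level per kilobase of one gene divided by that of another, on a log axis. Points are single libraries of the 4 groups. BdiBd21-3.3G0558300 passes BdiBd21-3.3G0311800 in the week 4 shoots alone, where the ratio is 1.18 to 1.61.

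In CPM per kilobase the sum of the 3 genes was 15 to 18 in roots and 17.7 to 20.6 in shoots at week 2, and 20.2 to 24.6 in roots and 22.8 to 23.3 in shoots at week 4. The 3 genes made up 43.0 to 46.6% of the summed level of all CYP76 genes in week 2 roots and 51.0 to 59.9% in week 4 roots. They made up 48.8 to 65.8% in week 2 shoots and 73.1 to 77.1% in week 4 shoots. Among the 285 P450 genes of the table, ranked by mean level per kilobase, BdiBd21-3.3G0311800 ranked 44 to 68 across the groups. BdiBd21-3.3G0558300 went from rank 89 to 61 between week 2 and week 4 shoots, and was at rank 126 and 147 in week 2 and week 4 roots. BdiBd21-3.1G0917300 ranked 92 to 107.

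In the rest of the family, as over all tested genes, differences between the organs were called more often than changes with age. Of the 9 other CYP76 genes, 6 passed the filter on low counts, 2 had no count in any library, and BdiBd21-3.4G0383000 had 42 counts in all. These genes were tested with edgeR's quasi-likelihood test and Benjamini-Hochberg adjustment over all 26463 tested genes. A gene was called at an adjusted p below 0.05. At week 2, 5 of the 6 were called, 4 higher and 1 lower in roots, where 56.1% of all tested genes were called (28.4% higher and 27.7% lower). At week 4, 4 of the 6 were called, 3 higher and 1 lower, against 60.9% of all tested genes (32.4% higher and 28.5% lower). The median log2 difference, root minus shoot, was 3.16 at week 2 and 1.78 at week 4, beside 0.01 and 0.04 over all tested genes.

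BdiBd21-3.4G0444900, whose best match is a rice CYP76M5, measured 28.9, 38.0 and 32.7 CPM in week 2 roots and 22.7, 24.4 and 30.0 CPM in week 4 roots. In shoots it was at 0.201, 0.883 and 0.269 CPM at week 2 and at 1.25, 0 and 1.06 CPM at week 4, far below every root library. The root minus shoot log2 difference was 6.15 ± 0.67 at week 2 (adjusted p = 1.9e-05) and 5.01 ± 0.62 at week 4 (adjusted p = 4.72e-05). It alone supplied 44.8 to 46.1% of the summed CYP76 level in week 2 roots and 30.3 to 38.5% in week 4 roots.

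BdiBd21-3.3G0472900, the remaining gene named after geraniol 8-hydroxylase, had the opposite organ pattern. It had no count in any of the 6 root libraries. In shoots it measured 42.2, 28 and 17.4 CPM at week 2 and 8.87, 11.0 and 10.6 CPM at week 4, without overlap. Taking 3 counts over the group as the floor in roots, the roots were lower than the shoots at least 669-fold at week 2 (adjusted p = 3.22e-06), and the bound at week 4 was 253-fold (adjusted p = 8.12e-06). In shoots it fell by 1.52 ± 0.31 on the log2 scale from week 2 to week 4 (adjusted p = 0.00929). Across the same interval BdiBd21-3.3G0558300 went from 6.58 to 24.1 mean CPM, and their shares of the summed CYP76 level went from 29.6 to 46.7% to 12.8 to 16.5% for BdiBd21-3.3G0472900 and from 3.87 to 15.9% to 35.9 to 38.7% for BdiBd21-3.3G0558300. Within the week 2 shoots, replicate 1 was highest for the former and lowest for the latter.

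**Figure D3:**
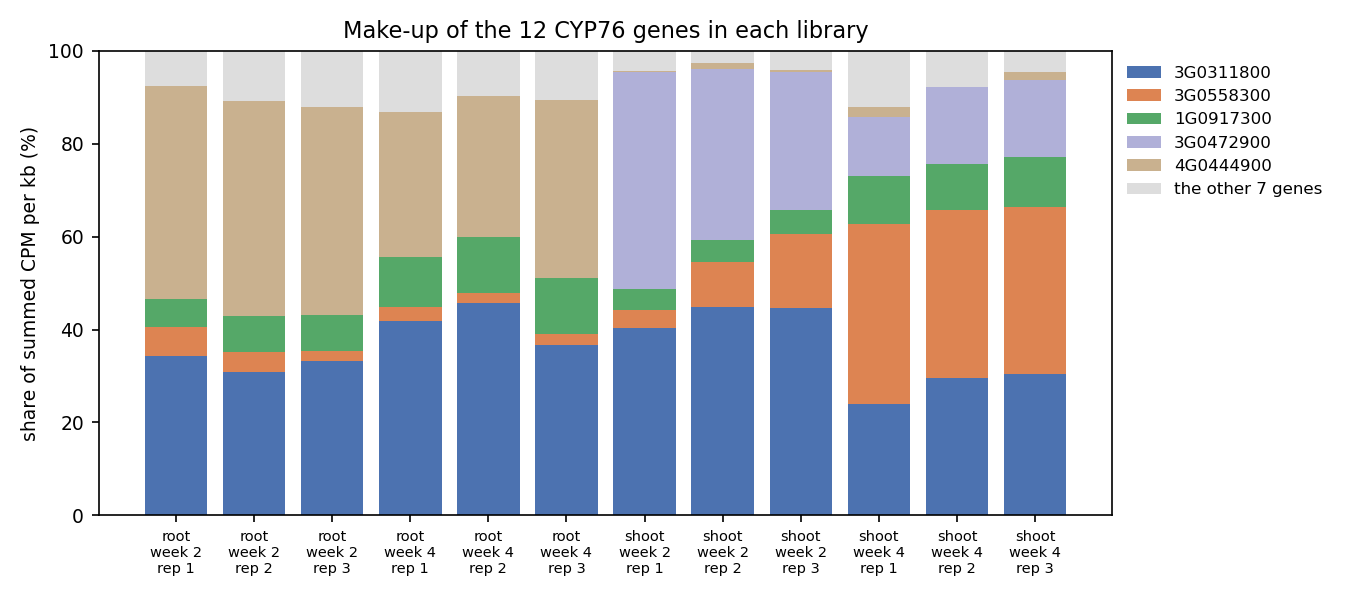
Share of the summed CYP76 level (CPM per kilobase over all 12 genes, stacked to 100%) held by each gene in each of the 12 libraries, with gene names shown without the prefix BdiBd21-3. BdiBd21-3.4G0444900 holds 30.3 to 46.1% in roots and at most 2.01% in shoots, and BdiBd21-3.3G0558300 holds 35.9 to 38.7% in week 4 shoots.

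The other 4 tested family members were at low levels. BdiBd21-3.4G0444800, also matched to CYP76M5, was at a mean of 2.75 CPM in week 2 roots and 2.78 CPM in week 4 roots, against 2 counts over all week 2 shoots and 1 count over all week 4 shoots. Its root to shoot ratio was 82.9 at week 2 (95% exact interval 22.6 to 690, adjusted p = 1.86e-05) and 162 at week 4 (28.7 to 6430, adjusted p = 1.35e-05), the intervals covering counting error only. BdiBd21-3.2G0531000, matched to CYP76C3 of Arabidopsis, was at 1.90 and 2.48 CPM in week 2 and week 4 roots and was also called higher in roots at both ages (adjusted p = 0.000985 and 0.00248). BdiBd21-3.3G0558500, matched to a 7-ethoxycoumarin O-deethylase, was at 1.52 ± 0.232 CPM in week 2 roots and 0.643 ± 0.316 CPM in week 2 shoots (adjusted p = 0.04). That call was lost when any of 7 single libraries was left out, with an adjusted p of up to 0.159: root week 2 replicate 2 or 3, root week 4 replicate 1 or 2, shoot week 2 replicate 2 or 3, or shoot week 4 replicate 1. BdiBd21-3.3G0498800, matched to CYP76M5, was not called in any of the 4 organ and age contrasts, but its week 4 root minus shoot difference of -0.96 (adjusted p = 0.108) was called without root week 4 replicate 1 (0.0313) or shoot week 4 replicate 3 (0.0411).

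With age, BdiBd21-3.3G0472900 in shoots was the only call among the 6 other CYP76 genes, where 33.9% of all tested genes were called (14.5% higher and 19.4% lower at week 4). In roots 0 of the 6 were called by edgeR, with 0 at an unadjusted p under 0.05 and 0 calls by DESeq2. Among all tested genes 18.8% were called (12.4% higher and 6.35% lower). The difference between organs in the change with age was likewise called for 0 of the 6. Again 0 were at an unadjusted p under 0.05 and 0 were called by DESeq2, against 8.52% of all tested genes (6.56% higher and 1.95% lower). BdiBd21-3.3G0472900 was at 0 in every root library, so neither test could have called it. BdiBd21-3.4G0444800 was nearly absent from shoots at both ages, so its interaction, 0.78 ± 1.46 on the log2 scale, was poorly measured. The 0 of 6 in each test therefore does not show that all these genes were unchanged.

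**Figure D4:**
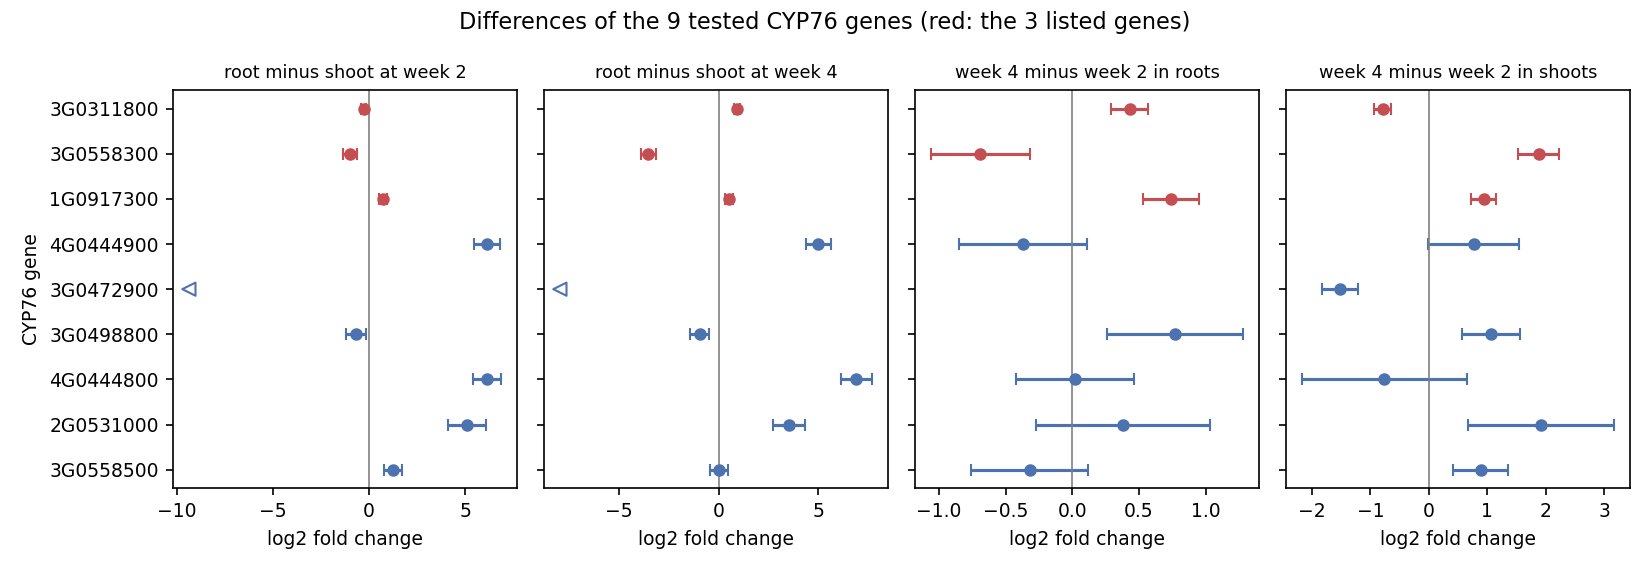
Fitted log2 differences with standard errors for the CYP76 genes in the 4 organ and age contrasts (each panel has its own x axis), the genes described marked apart from the rest of the family. Open triangles are lower bounds against a group with no count, and BdiBd21-3.3G0472900 is not drawn for roots, where both ages are at 0. BdiBd21-3.3G0558300 lies at -3.55 for roots minus shoots at week 4 and at 1.88 for week 4 minus week 2 in shoots.

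Position on the chromosome set some family members side by side. Of the CYP76 genes, 8 formed 4 pairs less than 20 kb apart. BdiBd21-3.3G0558300 and BdiBd21-3.3G0558500 are such a pair, 7101 bases apart on opposite strands with 1 gene between them, and BdiBd21-3.4G0444800 and BdiBd21-3.4G0444900 are another, 3468 bases apart with 0 genes between. The second pair was higher in roots throughout, whereas BdiBd21-3.3G0558500 stayed at means of 0.643 to 1.52 CPM while its partner reached 24.1 CPM. BdiBd21-3.3G0311800 and the chromosome 1 gene had no other CYP76 gene within 20 kb.

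Genes beside the 3 on the chromosome were compared next, and several had other patterns. BdiBd21-3.3G0558200, matched to probable carboxylesterase 8 and 1365 bases from BdiBd21-3.3G0558300, was at mean levels of 25.0 and 21.8 CPM in week 2 and week 4 roots and 6.19 and 1.99 CPM in week 2 and week 4 shoots. It was higher in roots at both ages (log2 2.01, adjusted p = 6.4e-05, and 3.44, adjusted p = 1.53e-06) and fell with age in shoots by 1.63 on the log2 scale (adjusted p = 0.00208). For BdiBd21-3.3G0558300, the direction with age in shoots was the opposite, and so was the organ with the higher level at week 4. At week 2 its roots and shoots overlapped.

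Another pair of neighbours were enolases, enzymes of glycolysis, of which the table holds 4. BdiBd21-3.3G0312000, an RNA-binding protein gene on the other side of BdiBd21-3.3G0311800, was at means of 49.1 to 56.6 CPM and was not called in any of the 4 organ and age contrasts. BdiBd21-3.3G0311700, 569 bases from BdiBd21-3.3G0311800 on the opposite strand, went from 919 to 595.5 mean CPM with age in roots and from 544 to 286.5 in shoots, falling by 0.63 (adjusted p = 0.00656) and by 0.93 (adjusted p = 0.000522) on the log2 scale. BdiBd21-3.1G0917100, 2013 bases from the chromosome 1 gene, went from 352.1 to 197.1 in roots and from 100.7 to 70.6 in shoots, falling by 0.84 (adjusted p = 0.00154) and by 0.51 (adjusted p = 0.00812). In roots both enolases fell where the CYP76 genes beside them were higher at week 4. In shoots BdiBd21-3.3G0311700 and BdiBd21-3.3G0311800 were both lower at week 4, and at week 4 both were higher in roots, by 1.06 (adjusted p = 2.06e-05) and 0.92 on the log2 scale, the latter without a test. No source used here says whether reads were assigned by strand, and BdiBd21-3.1G0917200, with 90 counts in all, directly abuts the chromosome 1 gene on the same strand, so reads at that border may have been counted for either.

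Genes with the most similar pattern were found as those with the smallest root mean square difference in centred log2 CPM over the 12 libraries, among 26462 other tested genes. Between the 3 genes themselves the distance was 0.652 for BdiBd21-3.3G0311800 and BdiBd21-3.1G0917300, 1.72 for BdiBd21-3.3G0311800 and BdiBd21-3.3G0558300, and 1.63 for the remaining pair. For scale, the median distance over all other tested genes was 0.709 from BdiBd21-3.3G0311800, 1.49 from BdiBd21-3.3G0558300 and 0.826 from BdiBd21-3.1G0917300. No nearest gene was another CYP76.

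For BdiBd21-3.3G0558300 the closest described genes were BdiBd21-3.1G0248200, a glyceraldehyde 3-phosphate phosphatase by name, at 0.381, and BdiBd21-3.2G0056600, a galactinol-sucrose galactosyltransferase of raffinose synthesis, at 0.397. The latter measured mean levels of 19.1 and 14.98 CPM in week 2 and week 4 roots and 28.6 and 117.3 CPM in week 2 and week 4 shoots. BdiBd21-3.5G0302250 and BdiBd21-3.1G1013400, both matched to receptor kinases of the S-domain type, followed at 0.406 and 0.416. The table's annotation gives BdiBd21-3.5G0302250 a lectin domain but no kinase domain. It had 76 counts in all, with 1 in week 2 roots and 0 in week 4 roots, so its distance rests on few counts. For BdiBd21-3.1G0917300 the closest was BdiBd21-3.5G0286700, a leucine-rich repeat receptor kinase, at 0.158, with mean levels of 63.4 and 93.4 CPM in week 2 and week 4 roots and 43.0 and 76.3 CPM in week 2 and week 4 shoots. For BdiBd21-3.3G0311800 the closest were BdiBd21-3.3G0227600, named after the receptor kinase HAIKU2, at 0.175, and BdiBd21-3.1G0920800, a calmodulin-lysine N-methyltransferase, at 0.182. These distances describe shared patterns over 4 groups and carry no test.

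Partner and precursor genes of the P450 reaction were examined as background to the 3 genes. All 16 genes whose descriptions name NADPH-cytochrome P450 reductase, cytochrome b5 or NADH-cytochrome b5 reductase passed the filter, cytochrome b5-like proteins among them. They are called electron-donor genes below by description only, and whether each serves a P450 was not measured. At week 2, 7 were called higher and 2 lower in roots, and at week 4, 7 higher and 4 lower, with median log2 differences of 0.25 and 0.38. The called shares were 56.2% at week 2 and 68.8% at week 4, beside 56.1% and 60.9% of all tested genes. BdiBd21-3.5G0319900, a P450 reductase, averaged 282.4 ± 11.3 and 294.7 ± 13.8 CPM in week 2 and week 4 roots and 161 ± 9.26 and 180.1 ± 10.0 CPM in shoots of the same ages. It was higher in roots by 0.81 ± 0.09 (adjusted p = 8.06e-06) and 0.71 ± 0.09 (adjusted p = 2.22e-05) on the log2 scale. The other reductase named by the rule, BdiBd21-3.3G0261800, rose with age in shoots from 60.8 to 99.3 mean CPM (log2 0.71 ± 0.15, adjusted p = 0.00509), where BdiBd21-3.3G0558300 was also higher at week 4. Its root minus shoot log2 difference was -0.53 ± 0.15 at week 4 (adjusted p = 0.0107) and 0.39 at week 2 (adjusted p = 0.0492), the latter lost without any 1 of 10 libraries, all but root week 4 replicates 1 and 3, with an adjusted p of up to 0.193. A further reductase, BdiBd21-3.4G0527500, chosen after its values were seen, was called lower in roots at both ages, with log2 differences of -0.50 and -0.92. With age, 1 of the 16 was called in roots, as lower, and 5 in shoots, 3 higher and 2 lower, or 6.25% and 31.2% beside 18.8% and 33.9% of all tested genes. The root count was 3 without root week 4 replicate 3, and the shoot count was 8 without shoot week 4 replicate 1. The median log2 difference with age was -0.16 in roots and -0.18 in shoots, beside 0.05 and 0 over all tested genes.

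Terpene synthases make olefins and alcohols that many P450s oxidise, and most of those that passed the count filter were higher in shoots. Of 24 genes, 13 passed the filter and 5 had no count. At each age 9 of the 13 were called, all lower in roots, with median log2 differences of -3.96 at week 2 and -6.36 at week 4. That share of 69.2% stood beside 27.7% of all tested genes called lower in roots at week 2 and 28.5% at week 4. Some of the 13 passed the filter through shoots alone. Among them were BdiBd21-3.1G0652200, with 0 counts in roots of either age, and BdiBd21-3.5G0279800, with 0 and 1 in week 2 and week 4 roots. For such genes only a lower level in roots could be called, so the share does not describe the whole family. BdiBd21-3.5G0279800, matched to an ent-kaurene synthase-like protein, averaged 8.12 CPM in week 2 shoots against 0 counts over the week 2 roots, a bound of at least 186-fold (adjusted p = 2.24e-07). With age, 1 synthase was called in roots and 1 in shoots, both higher at week 4, or 7.69% each beside 12.4% and 14.5% of all tested genes called higher, with medians of 0.19 and 0.08, the former 0 when genes without counts in a group are set to their bound. The root call was lost without any of 9 libraries, all but root week 2 replicate 3, root week 4 replicate 3 and shoot week 2 replicate 3. The shoot count was 3 without root week 2 replicate 1, 2 without root week 2 replicate 3, and 0 without shoot week 2 replicate 1 or shoot week 4 replicate 1.

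Genes that supply isoprenoid precursors, geranyl diphosphate among them, belong to the plastid methylerythritol phosphate route and the mevalonate route. Of 30 genes, 28 passed the filter and 2 had no count. At week 2, 12 were called higher and 14 lower in roots, and at week 4, 9 higher and 15 lower, with median log2 differences of -0.87 and -0.75. The called shares were 92.9% at week 2 and 85.7% at week 4, beside 56.1% and 60.9% of all tested genes. The medians pool routes that differed. Every tested gene of the plastid route was called lower in roots at both ages, while every called gene of the mevalonate route was higher in roots. The remaining genes of the list went both ways. This split was made after the values were seen. Of all tested genes, 27.7% and 28.5% were called lower in roots at week 2 and week 4, and 28.4% and 32.4% higher. In edgeR the week 2 call of the plastid route gene BdiBd21-3.1G0729500 was lost without the low-count filter (adjusted p = 0.057). It was also lost without root week 2 replicate 1 (0.0607) or shoot week 4 replicate 1 (0.0543). BdiBd21-3.3G0637800, encoding HDS of the plastid route, averaged 72.5 and 143.9 CPM in week 2 and week 4 roots and 511.1 and 904.2 CPM in shoots of the same ages. It rose with age in roots by 0.99 (adjusted p = 0.00319) and in shoots by 0.82 (adjusted p = 0.00379) on the log2 scale. Of the 3 CYP76 genes, the chromosome 1 gene was likewise higher at week 4 in both organs, but unlike HDS it was higher in roots than in shoots. With age, 17 of the 28 precursor genes were called in roots, 10 higher and 7 lower, and 12 in shoots, 6 higher and 6 lower, with medians of 0.17 and 0.06. These were 60.7% and 42.9% of the list, beside 18.8% and 33.9% of all tested genes. The root count was 9 without root week 2 replicate 1, 9 without root week 4 replicate 1 and 10 without root week 4 replicate 2. The summed chlorophyll a-b binding level was also higher in week 4 than in week 2 roots. Its part in these root changes, higher or lower, was not tested.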

How the data were processed

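RNA of roots and shoots at week 2 and week 4 was measured in 12 libraries, 3 per group. The authors deposited a table of raw counts per gene with the genes' positions, lengths and descriptions, per the file headers. The titles of all 3 week 4 shoot samples carry the same library code, so their count columns were matched by replicate number. HISAT2 2.0.5, featureCounts 1.5.0-p3 and HTSeq 0.6.1 are named in the submitters' processing notes without their roles, and no source used here gives the genome build or strand setting. The 3 genes and all lists were chosen with earlier results of these data known.

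From the counts, all 12 libraries were fitted with 1 mean per group in edgeR 4.0.16 under R 4.3.3 (filterByExpr with a minimum count of 10 and a minimum total of 15, TMM, robust quasi-likelihood), leaving 26463 genes and 8 residual degrees of freedom. Tests were two-sided, with Benjamini-Hochberg adjustment over these genes for each of 5 contrasts, the fifth being the root minus the shoot change with age. The labels name different plants, not separate vessels, so p-values measure the spread between these samples. Fold changes use a prior count of 0.125 and distances between patterns a prior count of 2. Where a group had no count, the fold is a bound from 3 counts over the group, and a group of 1 to 3 counts has a 95% exact interval covering counting error only. Lists were taken by words in the gene descriptions. Genes named are the 3 genes, the tested CYP76 genes, and, among those named by fixed rules, genes drawn from the 4 most abundant of each list, the called gene with the largest root minus shoot difference at each age, the 5 genes nearest in pattern and the 2 neighbours on each side. Alternatives were RLE or upper-quartile scaling, no filter, a filter of CPM 1 in 3 libraries, DESeq2 1.42.0, the compared libraries alone, a replicate block and leaving out each library.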

Additional observations from a re-analysis of the deposited data

Results flagged for a closer look

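BdiBd21-3.3G0311800 was higher at week 4 in every root library, by 0.43 on the log2 scale, and lower at week 4 in every shoot library, with a difference of -0.79. This difference between the organs was not tested, since the gene was chosen with its values known.

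In edgeR's quasi-likelihood interaction test, the change with age differed between roots and shoots for 5 of the 28 tested precursor genes and 1 of the 16 electron-donor genes, beside 8.52% of all tested genes. Those that the naming rule picked, and 1 neighbouring gene, make up the 4 given here. The P450 reductase BdiBd21-3.3G0261800 differed by -0.92 ± 0.22 (adjusted p = 0.0257), a call lost without root week 2 replicate 2, root week 4 replicate 2 or shoot week 2 replicate 1, with an adjusted p of up to 0.059. The carboxylesterase-like BdiBd21-3.3G0558200, next to BdiBd21-3.3G0558300, differed by 1.43 ± 0.40 (adjusted p = 0.0466), a call lost without any 1 of 9 libraries (all but root week 4 replicate 1 and shoot week 4 replicates 1 and 2) and at 0.0501 with RLE scaling, with an adjusted p of up to 0.105. BdiBd21-3.2G0337000, a DXS gene at the entry to the plastid precursor route, differed by 1.42 ± 0.24 (adjusted p = 0.00531). BdiBd21-3.5G0026800, an acetyl-CoA acetyltransferase of the mevalonate route, differed by -0.69 ± 0.15 (adjusted p = 0.016).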

How the results depend on the processing

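The fitted differences of the 3 genes moved by less than the replicate spread in all 282 comparisons with an alternative. They kept their direction whenever a single library was left out. Total counts in place of TMM were tried for the levels only, without fits or a new order of the means. TMM factors were 1.0871 to 1.1616 in roots and 0.8385 to 0.9264 in shoots. Leaving out single libraries took the week 4 minus week 2 difference of BdiBd21-3.3G0558300 in shoots from 1.54 to 2.13 and that of BdiBd21-3.3G0311800 from -0.97 to -0.72. On total counts in place of TMM, 5 mean levels moved: BdiBd21-3.1G0917300 to 10.0 CPM in week 4 roots and 5.40 CPM in week 4 shoots, BdiBd21-3.3G0311800 to 29.8 CPM in week 2 roots and 16.2 CPM in week 4 shoots, and BdiBd21-3.3G0558300 to 21.0 CPM in week 4 shoots. DESeq2 called 8 precursor genes, 2 electron-donor genes and 1 terpene synthase for the difference between organs in the change with age, and 3 terpene synthases with age in roots and 4 in shoots. With the compared libraries alone, 2 electron-donor genes and 0 terpene synthases were called with age in roots, and 4 terpene synthases in shoots. A filter of CPM 1 in 3 libraries gave 2 terpene synthases with age in shoots. Without single libraries, calls with age ranged from 9 to 17 for precursor genes in roots, from 1 to 3 for electron-donor genes in roots and 4 to 8 in shoots, and from 0 to 1 for terpene synthases in roots and 0 to 3 in shoots. Calls for the difference between organs ranged from 4 to 9 for precursor genes and 0 to 1 for electron-donor genes. The shares of all genes called under these alternatives are not available here, so nothing is read from the changes in count. The causes were not tested. To look for pairing, each group's mean log2 CPM was subtracted and the remainders were correlated across tested genes between libraries of different groups. For same-numbered libraries these correlations of remainders were -0.121 to 0.179. In 8 of 18 comparisons a library was best with its own number among the 3 of the other group. Between same-numbered roots and shoots of the same week they were 0.179, 0.07 and 0.111 at week 2 and -0.115, 0.045 and -0.106 at week 4. With 3 replicates per group, these values cannot decide whether the numbers pair the samples. The replicate block gave 0 terpene synthases with age in roots and 0 in shoots, and adjusted p = 0.0563 for BdiBd21-3.3G0558500 at week 2, 0.0509 for BdiBd21-3.3G0261800 at week 2, 0.0534 for the sesquiterpene synthase BdiBd21-3.1G0652200 with age in shoots and 0.0643 for the interaction of BdiBd21-3.3G0558200. The fit of the compared libraries alone was not run for the interaction, which uses all libraries. Depth limits BdiBd21-3.3G0558300 in roots, with 34 to 101 counts per library.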
